A study of Mus musculus with 12 samples.

Results

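Myc, Mycn and the proteins that share the partner Max were followed in mouse bone marrow cells carrying 1 of 3 NUP98-HOX constructs or an empty vector. The 8 genes were Myc, Mycn, Max, Mxd1, Mxd4, Mxi1, Mnt and Mga, and every probe set annotated to one of these symbols was taken, 16 of the 22626 probe sets tested, whereas the array named 12393 genes in all. The set was built around a Mycn probe set that had been chosen from its lower signal against the GFP control, so that difference is described below without a test.

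All cells came from the marrow of adult (C57Bl/6Ly-Pep3b×C3H/HeJ) F1 mice given 150 mg/kg 5-fluorouracil 4 days earlier. They were prestimulated for 48 hours with IL-6, IL-3 and stem cell factor and infected for 2 days beside irradiated GP+E86 producer cells. After a further 24 hours GFP+ cells that bore Sca-1 and lacked lineage markers were sorted. The 4 groups were ND13 (NUP98-HOXD13), NA10 (NUP98-HOXA10), ND13(N51S), which is NUP98-HOXD13 with the homeodomain mutation N51S, and the GFP control, the MSCV vector with its GFP cassette alone. The constructs join part of the nucleoporin NUP98 to the homeodomain of a HOX protein. ND13 is a fusion known from acute myeloid leukemia, NA10 was engineered, and N51S changes a residue by which the homeodomain contacts DNA. Each group had 3 arrays, 1 for each of 3 independent experiments, and every cell had been through 5-fluorouracil, cytokines and virus. Expression was driven by the viral vector in a mixed population of transduced cells sorted within days of infection, so these are neither clones nor leukemias. Whether the donors of an experiment were pooled is not given in the sources used here.

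Signals are MAS5 values on a linear scale, and log2 changes are differences of mean log2 signal. SE and adjusted p-values come from 1 limma fit with no term for the experiment, unless a block by replicate number is named. Background was set on each array at the 95th percentile of its 27 bacterial controls and lay at 28.5 to 69.8. As a sign of RNA quality, the signal of Gapdh at its 3' end over that at its 5' end was 48.87 on ND13(N51S) replicate 2 and 1.901 to 2.71 on the other 11 arrays. The label of GFP control replicate 1 was kept, although the experiment record of that array states GFP- cells and names both the vector and ND13 N51S. If GFP- cells of that culture were used, the array is no vector control in any comparison with the GFP control. Values without this array and ND13(N51S) replicate 2, the arrays in doubt, are given beside the results they touch. Of 10 markers of primitive hematopoietic cells 8 were measured, among them Kit and Cd34, and all 8 were above background on every array, while Ly6a, the gene of the sorted antigen Sca-1, was not among those measured. The B cell factors Ebf1 and Pax5 and the T cell genes Cd3d and Cd4 were above background on no array.

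Myc and Mycn are basic helix-loop-helix leucine zipper transcription factors that bind DNA as partners of Max, preferring the E-box letters CACGTG, and they drive genes of ribosome production, metabolism and cell division. Mxd1, Mxd4, Mxi1, Mnt and Mga bind Max too, and the Mxd proteins, Mxi1 and Mnt recruit Sin3 corepressors to the same letters. In mouse marrow, Myc and Mycn are both expressed in stem and progenitor cells, where they can stand in for each other and where Myc affects how stem cells leave their niche.

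The start of the Mycn gene is shown because Mycn carried the difference around which the genes were gathered. Mycn lies at chr12:12936093-12941836 on the minus strand (RefSeq, GRCm38.p6), and the 250 bases before its annotated start, chr12:12941837-12942086, are given 5′ to 3′ with matches to E2F words in capitals.
Mycn: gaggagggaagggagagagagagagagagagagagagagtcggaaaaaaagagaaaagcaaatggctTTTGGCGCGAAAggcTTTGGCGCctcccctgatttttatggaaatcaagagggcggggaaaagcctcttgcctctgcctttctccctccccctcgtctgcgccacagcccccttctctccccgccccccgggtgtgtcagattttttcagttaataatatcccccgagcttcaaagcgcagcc
E2F factors are cell cycle regulators. The words searched, on both strands, were TTTGGCGC, TTTCGCGC, TTTCCCGC and TTTGCCGC. TTTGGCGC began at positions -183 and -168 from the start, and TTTCGCGC lay on the other strand at -179, where it overlapped the first of them. Any of the 4 words was found in 2.26% of 32851 mouse promoter windows of 300 bases. The Mycn window held no CACGTG.

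The windows of the same length around a start of Max, Mxd4 and Mnt each held 1 E-box, which 7.15% of all windows did. The 30 bases around each are given because these genes encode proteins that themselves bind such letters. The E-box is in capitals.
Max: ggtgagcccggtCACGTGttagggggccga
Mxd4: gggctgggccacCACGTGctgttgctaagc
Mnt: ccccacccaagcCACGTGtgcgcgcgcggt
They come from chr12:76962234-76962263 on the minus strand, chr5:34187912-34187941 on the minus strand and chr11:74830789-74830818 on the plus strand (RefSeq, GRCm38.p6). The E-box began at -3 in Max, at -219 in Mxd4 and at -123 in Mnt, counted from the start used for the window. The annotated genes Max (chr12:76937269-76962323) and Mnt (chr11:74830806-74845725) begin upstream of that start. The Max stretch therefore lies within the gene, and the Mnt stretch spans its first base. CACGTG was not among the letters of the windows of Mxd1, Mga and the 3 annotated starts of Mxi1. A match of letters is a description of the sequence and no measure of binding, and no window of Myc was used.

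Mycn, read by the probe set with its highest mean (1425923_at), had its lowest mean with the mutant fusion and its highest in the GFP control. The signals were 4537, 4397 and 6598 with ND13, 5042, 3306 and 6155 with NA10, 3322, 3351 and 4000 with ND13(N51S), and 8754, 8828 and 12180 in the GFP control. All 9 arrays with a fusion, the mutant included, lay below all 3 of the GFP control, a gap in either direction that 1.24% of all probe sets had. The means were 5177 ± 1230 with ND13, 4834 ± 1440 with NA10, 3558 ± 384 with ND13(N51S) and 9921 ± 1960 in the GFP control (SD, n = 3 each). The log2 change against the GFP control was -0.95 ± 0.23 in ND13 cells, -1.07 ± 0.23 in NA10 cells and -1.47 ± 0.23 in ND13(N51S) cells (SE), and -1.16 ± 0.19 for the 3 fusions together. Within an experiment Mycn was lower in 9 of 9 pairs of a fusion and its GFP control, by -1.61 to -0.80. These values chose the gene and are given as a description. In sorted populations, fewer cells of an expressing type and less RNA per cell cannot be told apart.

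**Figure D1:**
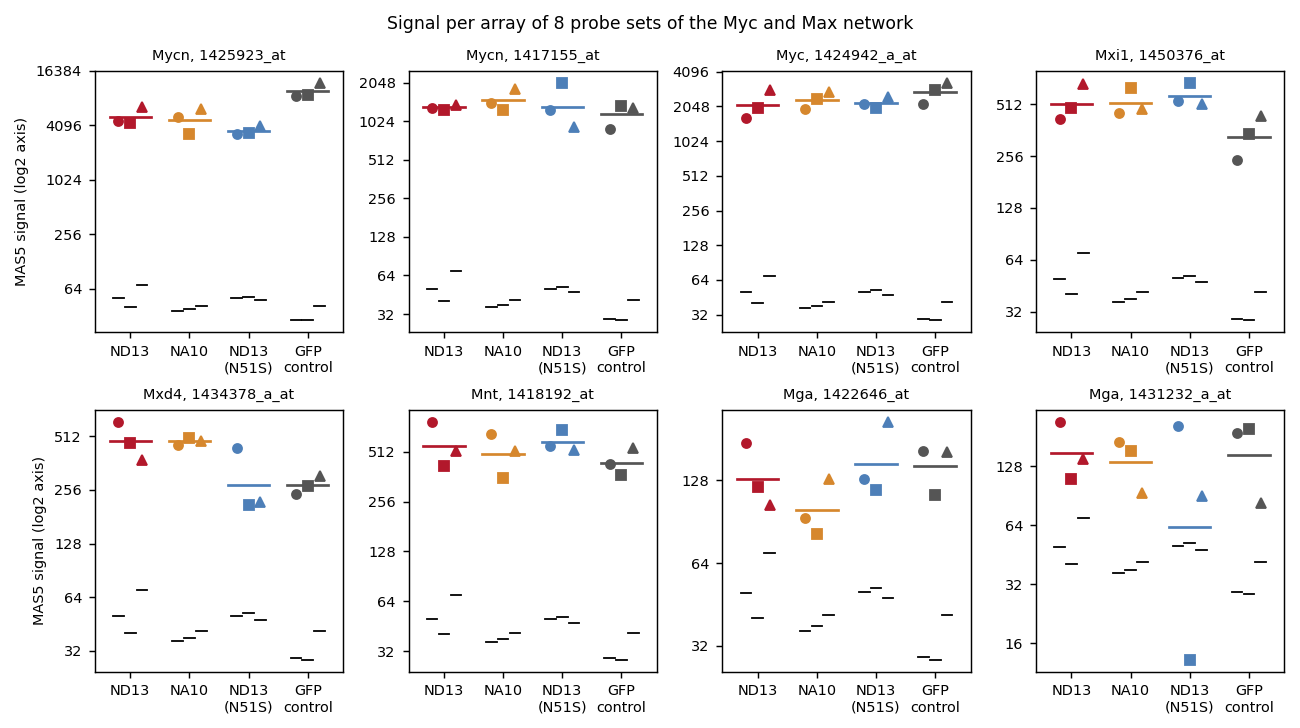
MAS5 signal (log2 axis) of 8 probe sets in the 4 groups. The first replicate is drawn as a circle, the second as a square and the third as a triangle, coloured lines are means of the log2 signal, and short black lines are the background of the array. For Mycn 1425923_at the 9 arrays with a fusion lie at 3306 to 6598 and the GFP control at 8754 to 12180, whereas Mycn 1417155_at overlaps between the groups.

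Among the fusions, which did not choose the gene, the order for Mycn 1425923_at was ND13, NA10 and then ND13(N51S). ND13 was higher than ND13(N51S) by 0.52 ± 0.23, with no overlap of their arrays (12.3% of all probe sets did not overlap there), but the difference did not pass the adjusted test (adjusted p = 0.62). NA10 was higher than ND13(N51S) by 0.40 ± 0.23 (adjusted p = 0.65), and their arrays overlapped. Between ND13 and NA10 the difference was 0.12 ± 0.23 (adjusted p = 1.0). No difference within this order passed the adjusted test, which does not make the levels equal. With the replicate number as a block the adjusted p against ND13(N51S) was 0.21 for ND13 and 0.30 for NA10.

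The other probe sets of Mycn did not show the same pattern. Mycn 1417155_at read 1310, 1252 and 1382 with ND13, 1427, 1257 and 1844 with NA10, 1244, 2055 and 920 with ND13(N51S), and 894, 1350 and 1289 in the GFP control. The groups overlapped throughout, and the log2 changes against the GFP control were 0.18 ± 0.28, 0.36 ± 0.28 and 0.20 ± 0.28 for ND13, NA10 and ND13(N51S) (adjusted p = 1.0, 1.0 and 0.88). Mycn 1425922_a_at was dim, at 15.8 to 144, and its lowest array, ND13(N51S) replicate 2, was the only one not above background. Its log2 changes were -0.18 ± 0.64 in ND13 cells, 0.25 ± 0.64 in NA10 cells and -0.69 ± 0.64 in ND13(N51S) cells. The value in ND13(N51S) cells rests on that lowest array and was 0.21 without it and 0.22 without both arrays in doubt. Over the 12 arrays, Pearson r with 1425923_at on the log2 scale was -0.167 for 1417155_at and 0.264 for 1425922_a_at, as a description. The platform annotation gives 1425923_at and 1425922_a_at 1 shared source sequence and 1417155_at another, and where each probe set lies on the transcript was not used here.

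Summed signals of cell type markers mostly ran against the Mycn 1425923_at signal, to different degrees, and some showed little relation to it. The summed signal of 5 mast cell markers, all above background on every array, was 3306 to 4113 with ND13, 3086 to 5651 with NA10, 4963 to 8814 with ND13(N51S) and 2365 to 4239 in the GFP control. Its Pearson r with Mycn 1425923_at was -0.651 over the 12 arrays, as a description, on linear signals as for all marker sums here. The summed signal of 6 macrophage markers, 5 of them above background on every array and none below it on all, was 6606 to 10210 with ND13, 5192 to 5866 with NA10, 6066 to 15090 with ND13(N51S) and 3863 to 7185 in the GFP control (r = -0.468). The sum of the 8 primitive markers overlapped between all groups, with 12820 to 15470 for ND13, 14420 to 16260 for NA10, 12680 to 14790 for ND13(N51S) and 12530 to 15090 for the GFP control. Of 8 fibroblast or virus producer cell markers 3 were above background on every array and none below it on all, and their sum was 703.2 to 758.5 with ND13, 859.6 to 1042 with NA10, 1103 to 1900 with ND13(N51S) and 649.4 to 1369 in the GFP control (r = -0.371). Of 6 erythroid markers 5 were measured, 3 of them above background on every array and Alas2 on none, with a sum of 398.5 to 482.3 for ND13, 307.3 to 531.2 for NA10, 626.9 to 767.3 for ND13(N51S) and 453.0 to 506.3 for the GFP control (r = -0.317). The mutant thus had the highest erythroid sums, with no overlap with the other groups. For the 8 primitive markers r was 0.0636, and for 8 granulocyte markers it was -0.0404. For the 5 B cell markers measured r was 0.287, and for the 5 T cell markers measured -0.372. Of these, 1 B cell marker and 0 T cell markers were above background on every array. The part of these populations in the Mycn values was not tested. With ND13(N51S) replicate 2 and GFP control replicate 1 both left out, the log2 change of Mycn 1425923_at was -1.03 in ND13 cells, -1.15 in NA10 cells and -1.51 in ND13(N51S) cells.

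**Figure D2:**
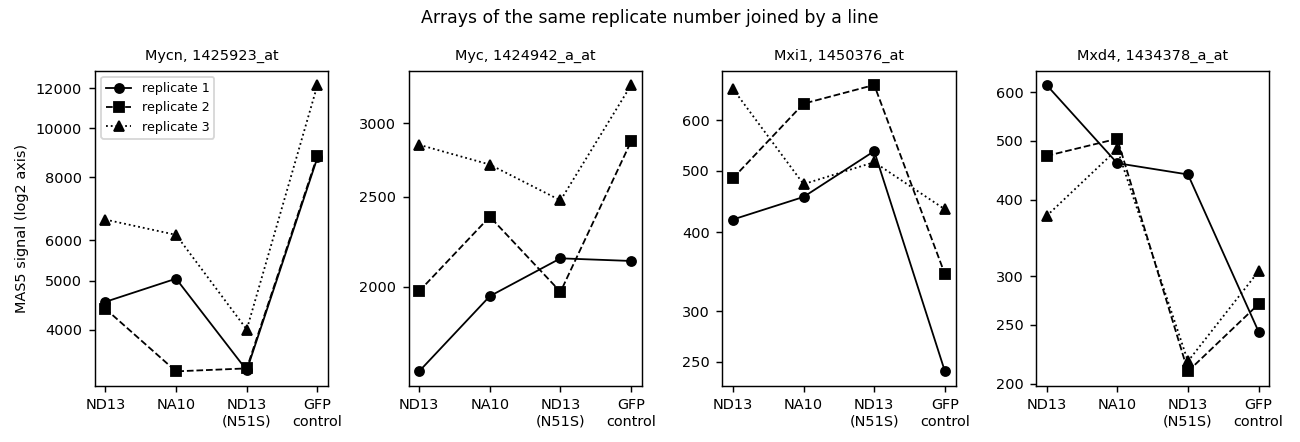
MAS5 signal (log2 axis) of Mycn, Myc, Mxi1 and Mxd4 with arrays of the same replicate number joined by a line. The GFP control is the highest array of each experiment for Mycn 1425923_at and the lowest for Mxi1 1450376_at, while ND13(N51S) lies below the GFP control in replicates 2 and 3 for Mxd4 1434378_a_at.

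Myc (1424942_a_at), the gene at chr15:61985341-61990361, had slightly lower means with each fusion. Its signals were 1622, 1978 and 2843 with ND13, 1954, 2379 and 2707 with NA10, 2146, 1975 and 2477 with ND13(N51S), and 2132, 2868 and 3297 in the GFP control. The arrays of all groups overlapped. The means were 2148 ± 628 with ND13, 2347 ± 378 with NA10, 2199 ± 255 with ND13(N51S) and 2766 ± 589 in the GFP control (SD, n = 3 each). The log2 change was -0.38 ± 0.23 with ND13 (adjusted p = 0.98), -0.23 ± 0.23 with NA10 (adjusted p = 1.0) and -0.31 ± 0.23 with ND13(N51S) (adjusted p = 0.76). Within experiments Myc was lower in 8 of 9 pairs, from -0.54 to 0.01, but no comparison passed the adjusted test. Replicate 3 had the highest Myc signal in every group, and Pearson r with Mycn 1425923_at was 0.615 over the 12 arrays on the log2 scale.

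The shared partner Max could hardly be read on this array. Max 1423501_at was above background on 6 of 12 arrays, 1 with ND13, 1 with NA10, 1 with ND13(N51S) and 3 in the GFP control, with signals from 5.18 to 135. GFP control replicate 1, at 38.15 against a background of 29.2, counted as above background. ND13 replicate 1, at 48.85 against 49.9, did not, so the split by group depends on the background of each array. No fold is drawn from Max.

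Among the antagonists, Mxi1 and Mxd4 had higher means with ND13 and NA10 than in the GFP control in their brightest probe sets. Mxi1, a repressor that competes for Max, is at chr19:53310128-53373293. Mxi1 1450376_at read 419, 486 and 673 with ND13, 455, 638 and 476 with NA10, 537, 682 and 516 with ND13(N51S), and 241, 343 and 435 in the GFP control. Only 1 array with a fusion, ND13 replicate 1, lay below the highest array of the GFP control. The means were 526 ± 132 with ND13, 523 ± 100 with NA10, 578 ± 90.8 with ND13(N51S) and 339.8 ± 96.6 in the GFP control (SD, n = 3 each). The log2 change was 0.64 ± 0.27 with ND13 (adjusted p = 0.79), 0.65 ± 0.27 with NA10 (adjusted p = 1.0), 0.80 ± 0.27 with ND13(N51S) (adjusted p = 0.55) and 0.70 ± 0.22 for the 3 fusions together (adjusted p = 0.61). Mxi1 was higher in 9 of 9 pairs within experiments, by 0.13 to 1.15, although it did not pass the adjusted test. Without GFP control replicate 1 and ND13(N51S) replicate 2 the change over the 3 fusions was 0.43. The dim probe set Mxi1 1425732_a_at, above background on 9 arrays, went the other way without passing the test, at -0.59 ± 0.55 in ND13 cells, -0.28 ± 0.55 in NA10 cells and -0.27 ± 0.55 in ND13(N51S) cells, the last of which was 0.08 without both arrays in doubt.

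Mxd4, a Max partner of the Mxd repressor family that is known from mouse cells that stop dividing and differentiate, is at chr5:34176580-34187710 and had higher means in ND13 and NA10 cells than with the mutant or in the GFP control in its brightest probe set. Mxd4 1434378_a_at read 616, 472 and 376 with ND13, 459, 504 and 484 with NA10, 440, 210 and 218 with ND13(N51S), and 243, 270 and 306 in the GFP control. All 6 arrays of ND13 and NA10 lay above the GFP control, whereas ND13(N51S) replicates 2 and 3 lay below it and replicate 1 above. The means were 488 ± 121 with ND13, 482 ± 22.3 with NA10, 289 ± 131 with ND13(N51S) and 273 ± 31.3 in the GFP control (SD, n = 3 each). Against the GFP control the log2 change was 0.82 ± 0.29 with ND13 (adjusted p = 0.70) and 0.83 ± 0.29 with NA10 (adjusted p = 0.97). Against ND13(N51S) it was 0.82 ± 0.29 with ND13 (adjusted p = 0.55) and 0.83 ± 0.29 with NA10 (adjusted p = 0.46). The mutant and the GFP control differed by -0.00 ± 0.29. No comparison of Mxd4 passed the adjusted test, and without both arrays in doubt the differences of ND13 and NA10 from ND13(N51S) were 0.63 and 0.64.

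A second readable probe set of Mxd4 had another order. Mxd4 1422575_at read 104, 119 and 76.6 with ND13, 83.4, 112 and 47.1 with NA10, 152, 111 and 140 with ND13(N51S), and 63.0, 89.6 and 55.9 in the GFP control. Here the mutant was the highest, with no overlap with the GFP control, at a log2 change of 0.97 ± 0.39 (adjusted p = 0.62), against 0.53 ± 0.39 with ND13 and 0.16 ± 0.39 with NA10. Mxd4 1434379_at was above background on all 3 arrays of ND13, on 2 of NA10, on none of ND13(N51S) and on 2 of the GFP control. Mxd4 1422574_at was above background on 3 of 12 arrays. The log2 change of ND13 against ND13(N51S) was 2.36 ± 0.92 in 1434379_at and 1.66 ± 1.01 in 1422574_at (adjusted p = 0.57 and 0.71). In 1422575_at it was -0.44 ± 0.39 (adjusted p = 0.81). Thus 1422575_at alone put the mutant above ND13. On the other side stood the brightest probe set, 1434378_a_at (0.82 ± 0.29), above background on all 12 arrays. With it stood 1434379_at and 1422574_at, which were often below background.

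Mnt, a ubiquitous Max-binding repressor, and Mga, a large Max partner with an additional T-box DNA-binding domain, passed no test and overlapped between the fusions and the GFP control. Mnt 1418192_at read 773, 418 and 515 with ND13, 657, 355 and 518 with NA10, 550, 687 and 522 with ND13(N51S), and 429, 369 and 537 in the GFP control. Its log2 changes were 0.32 ± 0.29, 0.17 ± 0.29 and 0.40 ± 0.29 for ND13, NA10 and ND13(N51S) (adjusted p = 1.0, 1.0 and 0.75), and all groups overlapped. Mnt 1418193_at was above background on 4 arrays. Mga 1422646_at read 174, 121 and 104 with ND13, 93.6, 81.5 and 129 with NA10, 129, 118 and 208 with ND13(N51S), and 163, 113 and 161 in the GFP control. The lowest pair of arrays was from NA10, and the log2 changes were -0.15 ± 0.33, -0.53 ± 0.33 and 0.03 ± 0.33 for ND13, NA10 and ND13(N51S) (adjusted p = 1.0, 1.0 and 0.99). Mga 1431232_a_at ranged from 83.1 to 216 on 11 arrays and read 13.2 on ND13(N51S) replicate 2, so its log2 change with the mutant, -1.23 ± 0.75, rests on that array and was -0.11 without it and 0.08 without both arrays in doubt. Mxd1 1422002_at, of the Mxd repressor most studied in differentiating myeloid cells, was above background on none of the 12 arrays, with signals of 4.86 to 30.5.

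**Figure D3:**
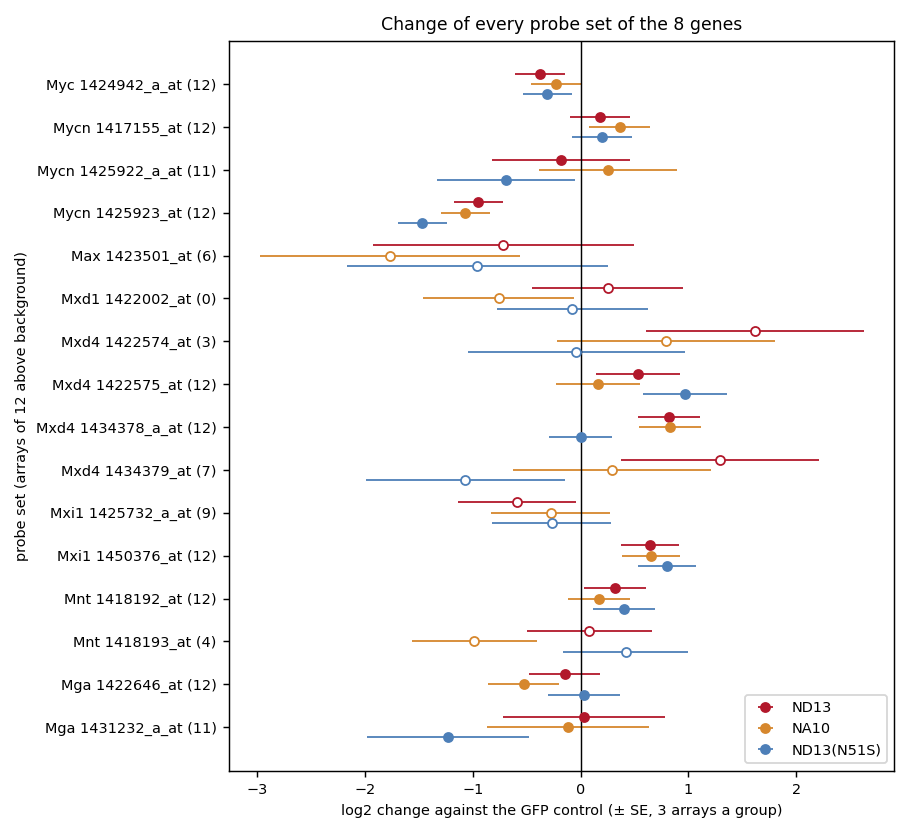
Log2 change (± SE) against the GFP control for all 16 probe sets, with ND13, NA10 and ND13(N51S) from top to bottom in each row. The number of arrays above background stands in parentheses, and open symbols mark probe sets above background on fewer than 11 arrays. Mycn 1425923_at, which was chosen for its lower values, lies at -0.95, -1.07 and -1.47, and Mxi1 1450376_at at 0.64, 0.65 and 0.80.

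Over all 16 probe sets, none was called in any of the 7 comparisons at an adjusted p < 0.05 and a 1.5-fold change. Few probe sets of the array were called at all: 0.0884% with ND13 against the GFP control, 0.0133% with NA10, 0% with ND13(N51S) and 0.0265% with the 3 fusions together, then 0.0133% for ND13 and 0.00884% for NA10 against ND13(N51S), and 0.0177% for ND13 against NA10. Leaving Mycn 1425923_at aside, since it was chosen from these contrasts, 15 probe sets remained. At an unadjusted p < 0.05 with the same fold, 2 of 15 passed with ND13 (4.93% of all probe sets), 2 of 15 with NA10 (4.03%), 2 of 15 with ND13(N51S) (6.84%) and 1 of 15 with the 3 fusions together (4.2%). They were Mxd4 1434378_a_at and Mxi1 1450376_at with ND13 and with NA10, Mxd4 1422575_at and Mxi1 1450376_at with the mutant, and Mxi1 1450376_at for the 3 together. The methods' t-test at the same thresholds passed 1 of 15 with ND13 (3.74% of all probe sets) and 1 of 15 with NA10 (3.2%). Each time this was Mxd4 1434378_a_at. With ND13(N51S) 2 of 15 passed (4.08%), Mxd4 1422575_at and Mxi1 1450376_at. With the 3 fusions together 1 of 15 passed (3.4%), Mxi1 1450376_at. None passed after Benjamini-Hochberg adjustment.

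Counted by arrays that did not overlap between the groups, 1 of 15 stood apart with ND13 (12.2% of all probe sets), 2 of 15 with NA10 (10.8%), 2 of 15 with ND13(N51S) (12%) and 0 of 15 with the 3 fusions together (1.24%). Against the mutant, 2 of 15 stood apart with ND13 (12.3%) and 2 of 15 with NA10 (13.7%). These shares are near those of the whole array, so the counts are not a result about these genes. All comparisons against the GFP control share its 3 arrays.

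Genes that Myc is known to induce, taken from general knowledge of Myc targets, were mostly a little lower in cells with a fusion. Of 38 such genes 35 were measured, with 1 probe set each. None was called in either direction in any comparison with the GFP control, nor with the replicate number as a block. The log2 change was below 0 for 33 of 35 with ND13, 29 with NA10, 31 with ND13(N51S) and 32 with the 3 fusions together. Of all genes, 48.8%, 50.5%, 41.4% and 47.1% were below 0 in the same comparisons. The median change of the 35 was -0.26 with ND13, -0.18 with NA10, -0.22 with ND13(N51S) and -0.21 together, beside 0.01, -0.00, 0.09 and 0.02 for all genes. Among the 4089 genes with a mean signal above 500 the medians were -0.02, 0.00, -0.01 and -0.01. For the 35 genes the SD of the median over the 3 replicate numbers was 0.13, 0.07, 0.09 and 0.05 in the same order. Without both arrays in doubt their medians were -0.22, -0.15, -0.14 and -0.17. The genes share the same arrays, so their counts are not independent observations. ND13 differed from ND13(N51S) by a median of 0.04.

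The lowest of the induced genes over the 3 fusions were Rrp9, a protein of ribosomal RNA processing, at -0.84, and Cdc25a, a phosphatase that starts the cell cycle, at -0.48. Rrp9 averaged 574 ± 97.9 with ND13, 523 ± 134 with NA10, 398 ± 384 with ND13(N51S) and 704 ± 183 in the GFP control. Its log2 change was -0.28 in ND13 cells, -0.43 in NA10 cells and -1.82 in ND13(N51S) cells, where replicate 2 read 24.54, the only array not above background, and replicates 1 and 3 read 377 and 791.3. The place of Rrp9 as the lowest rests on that array, since its change was -0.33 in ND13(N51S) cells and -0.35 over the 3 fusions without it, and -0.14 and -0.15 without both arrays in doubt. Without both, Cdc25a stood at -0.27 over the 3 fusions, and Ppan, a factor of ribosome production that was level with it at -0.48 on all arrays, at -0.08. Cdc25a averaged 1533 ± 606 with ND13, 1600 ± 417 with NA10, 1029 ± 325 with ND13(N51S) and 1836 ± 273 in the GFP control. The highest were Tert, the catalytic subunit of telomerase, at 0.29 and above background on 7 arrays, and the amino acid transporter Slc7a5 at 0.10.

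**Figure D4:**
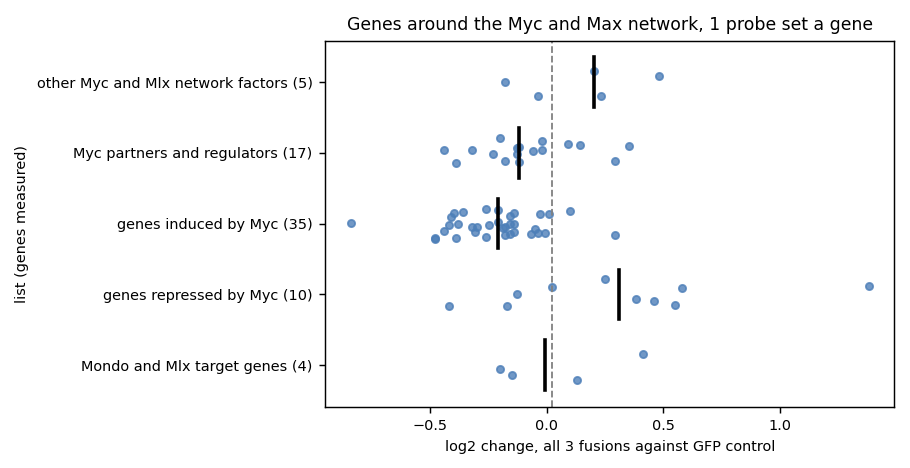
Log2 change of the 3 fusions together against the GFP control for the genes of 5 lists, 1 point a gene, with the number measured in parentheses. Black bars are list medians and the dashed line is the median of all genes, 0.02. Of the genes induced by Myc, 32 of 35 lie below 0 with a median of -0.21, and no gene shown was called.

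Genes that Myc is known to repress varied more. Of 10 such genes none was called, and the median log2 change was 0.14 with ND13, 0.17 with NA10, 0.45 with ND13(N51S) and 0.31 together, with 5, 7, 8 and 7 of 10 above 0. The SD of these medians over the 3 replicate numbers was 0.15, 0.09, 0.29 and 0.12. Without both arrays in doubt the medians were 0.22, 0.29, 0.60 and 0.35. The cyclin-dependent kinase inhibitors Cdkn2b and Cdkn1b were the highest over the 3 fusions, at 1.38 and 0.58, but Cdkn2b was above background on only 6 arrays. Cdkn1b averaged 198 ± 60.1 with ND13, 122 ± 21.0 with NA10, 164 ± 30.6 with ND13(N51S) and 104 ± 12.8 in the GFP control (adjusted p = 0.67, 1.0 and 0.66 for ND13, NA10 and ND13(N51S)). The lowest were Cebpa, a factor of myeloid differentiation, at -0.42, and Gadd45g, a stress-response gene, at -0.17.

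Partners and regulators of Myc showed no member called, with 17 of 20 measured and a median log2 change of -0.08 with ND13, -0.14 with NA10, -0.15 with ND13(N51S) and -0.12 together. The lowest were Mycbp, a Myc-binding protein, at -0.44 and Ruvbl2, an ATPase of chromatin complexes, at -0.39, and the highest were Fbxw7, the ubiquitin ligase subunit that targets Myc for destruction, at 0.35 and the kinase Pim1 at 0.29. Sin3a and Sin3b, the corepressors of the Mxd proteins, both stood at -0.13. Of 5 other factors of the network none was called. Mxd3, another Mxd family member, was the highest at 0.48, then Mlxip, a glucose-sensing partner of Mlx, at 0.23, while Mlxipl stood at -0.18 and Mlx at -0.04. Of 4 genes known to respond to the Mlx arm none was called, with Hk2, which phosphorylates glucose, at 0.41, Txnip at 0.13, Arrdc4 at -0.20 and Pklr at -0.15.

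Over the 12 arrays and 10372 probe sets of 1 gene with a mean above the median, the signals most like Mycn 1425923_at were those of Hnrnpab, an RNA-binding protein (Pearson r = 0.899 on the log2 scale), Uchl5, a deubiquitinating enzyme of the proteasome (0.852), and Slc25a5, a mitochondrial ADP/ATP carrier (0.841). The most opposite were Oprk1, an opioid receptor (-0.916), Oga, which removes O-linked N-acetylglucosamine from proteins (-0.890), and Prkcb, a protein kinase C (-0.862). These are descriptions over arrays that share groups and experiments. Mycn 1425923_at was chosen from its gap to the GFP control, and that gap enters every r with it. Hnrnpab averaged 4285 ± 779 with ND13, 4519 ± 457 with NA10, 4106 ± 541 with ND13(N51S) and 5584 ± 507 in the GFP control. Oga averaged 2521 ± 220 with ND13, 2646 ± 292 with NA10, 3077 ± 184 with ND13(N51S) and 1687 ± 237 in the GFP control. Among the other members, Mxd4 1422575_at (-0.777) and Mxi1 1450376_at (-0.621) were the most opposite to Mycn 1425923_at and Myc the most like it (0.615).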

How the data were processed

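RNA of sorted Sca-1+, Lin-, GFP+ cells was hybridised to 12 MOE430A arrays, 3 for each of the 4 groups given by the labels. Linear signal intensities of 22690 probe sets were deposited by the authors. The submitters' processing notes name MAS5, and each array had been scaled to a trimmed mean of 500.2. GC-RMA values were not used here. In this work the intensities were floored at 0.01 and put on the log2 scale without further scaling or filter. Of the probe sets 64 controls were dropped and 22626 were tested with limma 3.58.1 (lmFit, then eBayes with trend and robust) in R 4.3.3, 1 fit of all arrays with 13.4 degrees of freedom on average, with p-values adjusted by Benjamini-Hochberg over the whole table. Probe sets were called at an adjusted p < 0.05 and 1.5-fold. Plots used Python 3.11.15 and matplotlib 3.10.9. With 3 arrays a group, the number of arrays limits the precision.

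Genes were named through GEO's platform annotation, updated by gene number: 20380 probe sets had 1 gene, 691 several and 1555 none. Every probe set of the 8 genes is named, and the one with the highest mean stands for a gene. From each list up to 4 called genes, or otherwise the 2 highest and 2 lowest over the 3 fusions, are named, with the 3 probe sets most like Mycn and the 3 most opposite. Sin3a and Sin3b were added after their values were seen. The members and lists were chosen with earlier results of these data known. Marker lists are given as summed signals. Promoter windows reach from 250 bases before to 50 bases after a start.

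The design text speaks of independent experiments, and the replicate numbers were checked for pairing. Over probe sets with a mean above the median, deviations from the group mean correlated at 0.106 to 0.596 (median 0.364) between arrays of the same number and at -0.422 to 0.107 (median -0.200) between arrays of different numbers, and the arrays were taken as paired by number. The main fit had no term for this pairing, so its SE and p-values treat the arrays as unpaired. With the replicate block the adjusted p of Myc with ND13 was 0.46, beside 0.98 without it. For Mxi1 1450376_at over the 3 fusions it was 0.23, beside 0.61. The test was checked on simulated data in which the arrays were independent, so that check does not cover the pairing. The alternatives were the replicate block, quantile normalization, median centring, a pseudocount of 41.5, a filter on dim probe sets, plain eBayes, fits of the groups compared only, the methods' t-test, leaving out each array in turn, and leaving out both GFP control replicate 1 and ND13(N51S) replicate 2, the arrays in doubt.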

Additional observations from a re-analysis of the deposited data

How the results depend on the processing

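With the replicate number as a block, 1 member probe set was called in each of the 4 comparisons with the GFP control (ND13, NA10, ND13(N51S) and the 3 fusions together), where 0 were called without it. It was Mycn 1425923_at each time, and nothing is read from this, since that contrast chose the gene. The block changed no other call, and under every other alternative, each array left out in turn included, 0 member probe sets were called in all 7 comparisons. Leaving out 1 array moved the log2 change of Mycn 1425923_at to between -1.13 and -0.79 with ND13, -1.26 and -0.81 with NA10, -1.55 and -1.31 with ND13(N51S), and -1.24 and -1.0 together.

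No difference whose sign turned had passed the adjusted test. With both arrays in doubt left out, Mycn 1425922_a_at stood at 0.22 with ND13(N51S) and 0.10 together, Mxi1 1425732_a_at at 0.08 with ND13(N51S), Mycn 1417155_at at -0.01 with ND13, -0.30 with ND13(N51S) and -0.04 together, and Mga 1431232_a_at at 0.07 with NA10, 0.08 with ND13(N51S) and 0.12 together. Quantile normalization gave Mga 1422646_at -0.10 with ND13(N51S) and Mga 1431232_a_at -0.03 with ND13, and median centring gave -0.08 and -0.05. Among probe sets above background on fewer arrays, Mxd4 1422574_at with both left out stood at -0.28 with NA10 and -0.36 together, against 0.79 in each with all arrays, and Mxd4 1434379_at at -0.54 with NA10 and -0.46 together, against 0.29 and 0.17. With 1 array left out, Mycn 1425922_a_at ranged from -0.49 to 0.10 with ND13, from -0.01 to 0.51 with NA10, from -1.20 to 0.21 with ND13(N51S) and from -0.47 to 0.10 together, Mxi1 1425732_a_at from -0.61 to 0.15 with NA10 and from -0.54 to 0.08 with ND13(N51S), and Mxd4 1422575_at from -0.12 to 0.51 with NA10. In the same settings Mycn 1417155_at ranged from -0.01 to 0.29 with ND13 and from -0.12 to 0.46 with ND13(N51S), Mnt 1418192_at from -0.04 to 0.41 with NA10, Mga 1422646_at from -0.36 to 0.01 with ND13 and from -0.22 to 0.19 with ND13(N51S), and Mga 1431232_a_at from -0.38 to 0.25 with ND13 and from -0.53 to 0.14 with NA10. The difference of Mycn 1425923_at between ND13 and NA10 ranged from -0.13 to 0.32. The cause was not tested. The median of the genes induced by Myc stayed below 0 under each scaling and each array left out, between -0.28 and -0.09 with 1 array left out, and median centring placed it at -0.33 with ND13, -0.21 with NA10, -0.33 with ND13(N51S) and -0.28 together. Dim probe sets limit what can be said of Max and Mxd1, which were near or below background.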
